A study of Arabidopsis thaliana with 6 samples.

Results

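AT4TU019690 and AT4TU019700, and AT5TU022670 and AT5TU022680, are 2 pairs of long intergenic noncoding RNAs (lincRNAs) with consecutive unit numbers, measured in inflorescences of Arabidopsis thaliana. The members are 4 transcription units of 4499 on the array, carried by 12 of its 15013 probes, 3 probes each. They were chosen by their difference between rdr2 mutant and wild-type arrays in these same data, so their differences below are a description and carry no test. The array's annotation names these units without a gene symbol. That they are lincRNAs rests on the aim of the array study, and their coding capacity was not tested here.

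The groups were 3 samples of an rdr2 mutant and 3 wild-type (WT) samples, described as biological replicates, all of the Col-0 ecotype and 4 weeks old. The sample titles call the mutant rdr2, the growth description names the allele rdr2-1, and the genotype field gives rdr2-1, rdr2-2 and rdr2-3 for mutant replicates 1 to 3, so the allele was not settled and the mutant was treated as 1 group. Open flowers, buds and very young siliques were collected together, so fewer cells of a type and less RNA per cell cannot be told apart. None of the 17 floral organ identity genes, 3 leaf genes or 6 root genes listed as organ markers was on this array, so the organ could not be checked.

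RDR2 is an RNA-dependent RNA polymerase that copies transcripts of plant-specific RNA polymerase IV into double-stranded RNA. Dicer-like enzymes, chiefly DCL3, cut this into small interfering RNAs, which guide DNA methylation to matching loci with the help of RNA polymerase V. The pathway is known for silencing transposons and repeats, and lincRNAs are transcripts from between annotated genes with no evident protein-coding capacity.

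Signals are given as scaled signal, an array's processed intensity divided by the 75th percentile of its 2369 always-detected probes and multiplied by 100. The scanner software marks a spot as well above background or not. This mark covered 17.6%, 17.8% and 24.8% of probes on rdr2 replicates 1 to 3, and 37.9%, 37.4% and 24.1% on WT replicates 1 to 3. The groups thus differed in this share on replicates 1 and 2, while replicate 3 was alike. The lowest marked scaled signal of an array, called its limit here, was 1.31 to 2.63 in rdr2 and 1.11 to 1.84 in WT. Scaled signals near or under the limit are uncertain. Unmarked spots can lie above it: a spot of another unit, marked on no array, read 2.53 on WT replicate 1, whose limit was 1.84. Folds that use the limit in place of dimmer signals, called floored folds here, are therefore approximate and not strict bounds. Replicates 1 and 2 of each group shared a slide, replicate 3 had a slide of its own, and no slide held both groups, so slide and genotype cannot be told apart. Mutant replicate 3 was also read with a later software version than the other 5 arrays. Its median local background was 27 intensity units, against 13 on the other mutant arrays and 13.5 to 15 on WT arrays.

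RDR2 (AT4G11130, chromosome 4), which checks the labels, was lower on the rdr2 arrays on each of its 3 probes. Its probe CUST_4631 averaged 63.2 ± 2.73 in rdr2 and 410 ± 39.0 in WT (SD, n = 3 each), a log2 fold change of -2.69 (SE 0.125, limma adjusted p = 0.000168). Of the 19 listed genes of RNA-directed DNA methylation, 4 were on the array, of which 1 passed the limma test lower (RDR2) and 1 higher (NRPD1). NRPD1, the largest subunit of RNA polymerase IV, stood at 0.90, 1.02 and 1.15 on the log2 scale on its 3 probes (limma adjusted p = 0.00842, 0.00414 and 0.0104). It was not called when dim probes were kept, nor when a mark on a single array was enough to test a probe. The median over the list's 12 tested probes was -0.28, against -0.26 over all 3345 tested probes.

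The chromosome 4 pair was the one with less signal in the mutant. AT4TU019690 was a well-expressed unit in WT and stood near or under the detection limit on every rdr2 array. At probe CUST_11572 the scaled signals were 1.38, 1.58 and 2.88 in rdr2 replicates 1 to 3, against 203, 230 and 216 in WT replicates 1 to 3. CUST_11573 gave 0.523, 0.571 and 1.22 in rdr2, against 173, 195 and 188 in WT. CUST_11574 gave 1.93, 1.26 and 0.697 in rdr2, against 39.2, 41.3 and 44.7 in WT. All 3 probes thus separated the groups, with WT replicates close together and the mutant arrays spread around the limit. The mark for signal well above background was present on 3 of 3 WT arrays for each probe and, among mutant arrays, only on replicate 3 at CUST_11572.

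As floored folds, CUST_11573 was 89.1-fold lower and CUST_11574 20.1-fold lower in rdr2. These floored folds set the WT mean against, on each rdr2 array, the higher of that array's lowest marked signal and the probe's own. CUST_11572 was marked on 1 of 3 mutant arrays, and its other 2 mutant signals lay under the limit of their arrays, so no fold is given for it. The fitted log2 fold changes were -6.87, -8.02 and -5.13 at CUST_11572, CUST_11573 and CUST_11574, and -6.67 on average (SE 0.119 over arrays). All of these rest on mutant signals mostly below detection, so neither their exact size nor the SE measures how far the unit fell.

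AT4TU019700, the next unit in number, was much dimmer. CUST_2777 had scaled signals of 0.536, 0.566 and 0.294 in rdr2, against 5.56, 5.39 and 6.27 in WT. CUST_2778 had 0.716, 0.726 and 0.475 in rdr2, against 10.2, 4.37 and 2.93 in WT. Neither probe overlapped between the groups or was marked on a mutant array, but WT replicates differed more at CUST_2778 (5.84 ± 3.86) than at CUST_2777 (5.74 ± 0.469, SD, n = 3 each). As floored folds, CUST_2777 was 2.76-fold lower and CUST_2778 2.44-fold lower in rdr2, small values that depend on the limit used. The fitted log2 fold changes of -3.68 and -3.02 rest on mutant signals below detection. The remaining probe, CUST_2779, had 0.963, 0.598 and 0.963 in rdr2, against 0.797, 0.879 and 1.17 in WT. That probe was marked on WT replicate 3 alone, its groups overlapped, and no fold is given for it.

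**Figure D1:**
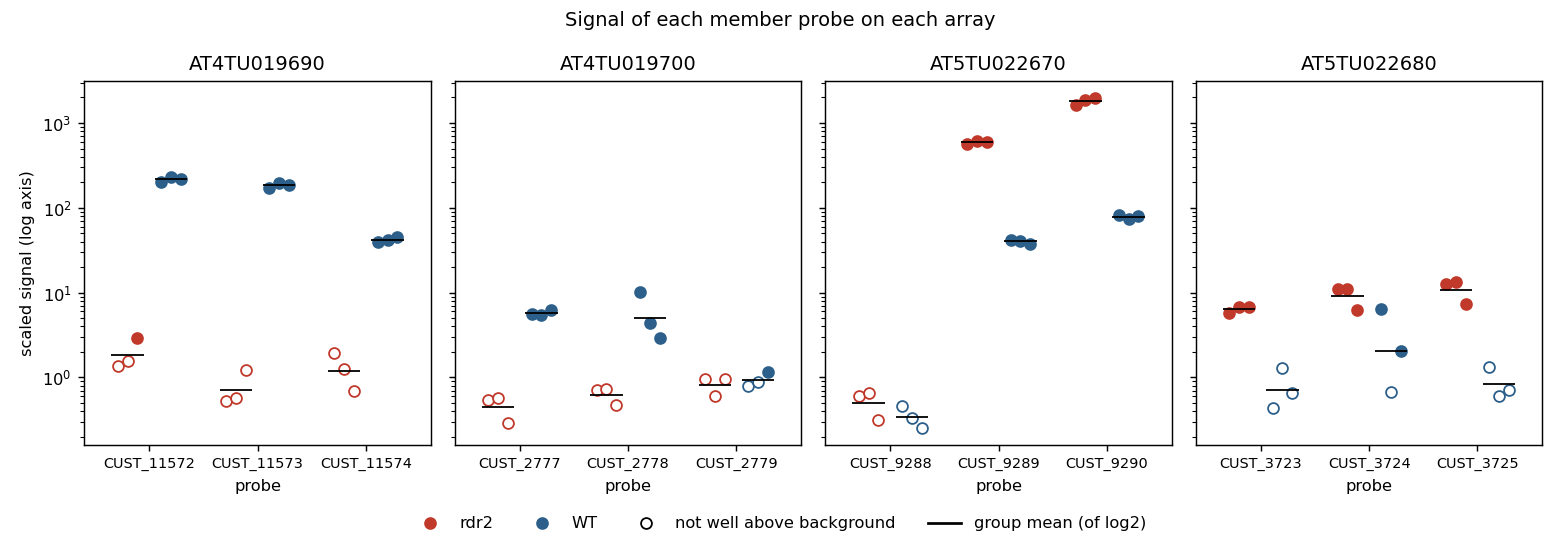
Scaled signal (log axis) of the 12 probes of the 4 units on each array, rdr2 in red left of WT in blue, replicates 1 to 3 in order, open circles where the spot was not well above background, and a bar at the mean of the log2 values (n = 3 each). AT4TU019690 lies at 39.2 or more on every WT array and at 2.88 or less on every rdr2 array, while AT5TU022670 lies at 573 or more in rdr2 and at 81.7 or less in WT on its 2 bright probes.

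The chromosome 5 pair was higher in the mutant, and AT5TU022670 was bright in both groups. CUST_9289 had scaled signals of 573, 614 and 589 in rdr2, against 42.1, 41.2 and 37.3 in WT, which is 14.8-fold (log2 fold change 3.88). CUST_9290 had 1645, 1890 and 1995 in rdr2, against 81.7, 74.2 and 80.2 in WT, which is 23.4-fold (4.55). Both probes were marked on all 6 arrays, so neither ratio depends on the limit, and the gap between groups far exceeded the spread within them. CUST_9288 was marked on no array, at 0.611, 0.659 and 0.316 in rdr2 and 0.458, 0.335 and 0.252 in WT, and gives no fold. The unit is therefore described by 2 of its 3 probes. Its average over all 3 was 3.00 (SE 0.144), which includes the dark probe.

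AT5TU022680 stood under the limit in WT at CUST_3723 and CUST_3725, and was dim but marked on every mutant array at each probe. At CUST_3723 the scaled signals were 5.80, 6.72 and 6.71 in rdr2, against 0.431, 1.31 and 0.663 in WT. At CUST_3725 they were 12.6, 13.2 and 7.29 in rdr2, against 1.31, 0.612 and 0.705 in WT. Both probes were marked on all 3 mutant arrays and on no WT array. As floored folds, with WT signals under the limit raised to it, they were 4.44-fold and 7.39-fold higher in rdr2. CUST_3724 behaved differently, at 11.07, 10.97 and 6.25 in rdr2 and 6.34, 0.679 and 2.04 in WT. Here WT replicate 1 lay just above mutant replicate 3, the groups overlapped on this scale, and 2 of 3 WT arrays were marked. The fitted log2 fold changes ran from 2.14 at CUST_3724 to 3.69 at CUST_3725 and averaged 2.99 (SE 0.320). The average and the values of CUST_3723 and CUST_3725 rest on WT signals below detection, so their exact size is not measured.

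Of the tested member probes, 5 of 5 on chromosome 4 were called lower by limma at an adjusted p of 0.05, against 8.49% of all tested probes. On chromosome 5, 4 of 5 were called higher, against 5.11%. The groups did not overlap on those same 5 and 4 probes. Over all tested probes, the rdr2 arrays lay entirely below the WT arrays at 26.6% and entirely above them at 12.2%. The units were chosen on this contrast, so nothing is read from these counts. With slide as a random block, 0 of 3 tested probes of AT5TU022680 and 1 of 2 of AT4TU019700 were called, and with normexp background correction 0 of 2 of AT4TU019700. With dim probes kept, which also tests CUST_2779, 1 of 3 was called for AT5TU022680 and 1 of 3 for AT4TU019700. Leaving out mutant replicate 1, mutant replicate 2 or WT replicate 2 left 1 of 2 called for AT4TU019700. In the other direction, 3 of 3 were called for AT5TU022680 with normexp and with scaling to the 75th percentile over all probes.

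The raw spots show how much of each value rests on background subtraction. For AT4TU019690 the median spot intensity at CUST_11572 was 19 to 32 in rdr2, over a local background of 11.5 to 28. In WT it was 717 to 870, over 14 to 17. For AT5TU022670 the spot at CUST_9290 reached 2744 to 5975 in rdr2 and 224 to 306 in WT. Both of these leading units were thus visible before any correction. The other 2 units were not far from their surroundings. AT4TU019700 at CUST_2777 measured 15 to 20 in rdr2, over a background of 11 to 25, and 36.5 to 44.5 in WT, over 15 to 16. At CUST_3725 of AT5TU022680, spots measured 36 to 37 in rdr2, over 13 to 25, and 20 to 26.5 in WT, over 13 to 14.5. Spot minus local background there was 23, 23 and 12 in rdr2 and 12, 9 and 7 in WT, so the groups met. At CUST_3723 it was 12, 14 and 9.5 in rdr2 and 11, 8 and 9 in WT. At CUST_3724 it was 22, 20 and 18 in rdr2 and 29, 7.5 and 15 in WT. The groups overlapped at both of these probes before the software's correction. On mutant replicate 3, whose background was higher, the spot did not exceed its local background at CUST_11573, CUST_11574, CUST_9288 or any probe of AT4TU019700.

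**Figure D2:**
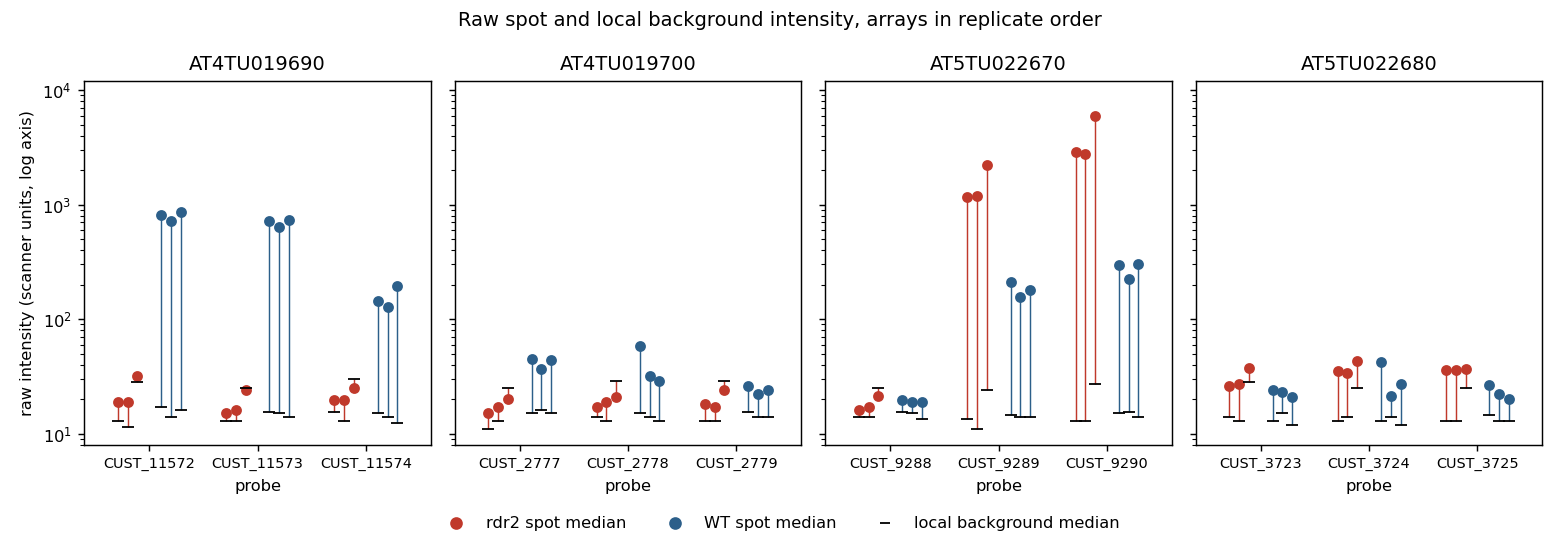
Raw median intensity of each spot (circle) and of its local background (dash) on a log axis in scanner units, for the 12 probes, rdr2 in red left of WT in blue, replicates 1 to 3 in order. AT4TU019690 in WT and AT5TU022670 in rdr2 stand far over their backgrounds, whereas AT4TU019700 and AT5TU022680 stay at 58 or less on every array.

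Ranking every probe within its own array removes the choice of scaling. AT4TU019690 at CUST_11573 lay between percentiles 4.68 and 66.9 of an array's 15013 probes in rdr2, and between 97.2 and 97.4 in WT. AT5TU022670 at CUST_9290 lay between 99.5 and 99.6 in rdr2 and between 95.3 and 95.6 in WT. AT4TU019700 at CUST_2777 lay between 7.30 and 8.44 in rdr2 and between 79.7 and 86.9 in WT. For AT5TU022680 the range at CUST_3725 was 87.6 to 90.0 in rdr2 and 40.7 to 65.9 in WT. The groups kept apart at these 4 probes by rank as they did by scaled signal. CUST_3724 of AT5TU022680 overlapped by scaled signal but not by rank, at 86.7 to 89.3 in rdr2 and 42.8 to 81.6 in WT.

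No full order of arrays within a group is given for the units, because their probes disagreed on it. Parts of the order were shared in the bright units. WT replicate 1 was the lowest WT array at every probe of AT4TU019690. At both bright probes of AT5TU022670, replicate 1 was the lowest in rdr2 and the highest in WT. Among WT arrays, replicate 3 was the highest at CUST_2777 and the lowest at CUST_2778, both of AT4TU019700. Among rdr2 arrays, replicate 1 was the lowest at CUST_3723 and replicate 3 at CUST_3725, both of AT5TU022680. The rdr2 values of the chromosome 4 pair were nearly all below detection and hold no order. With 3 arrays a group and mostly dim neighbours, no correlation was computed. Spots of a pair lay 10 to 134 array rows apart on chromosome 4 and 32 to 134 rows apart on chromosome 5, and none of the 12 was marked as saturated or uneven on any array.

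The 4 units had no start coordinate in the probe annotation used here. By unit number, the chromosome 4 pair falls between AT4TU019190, which starts at 5738570, and AT4TU019860, which starts at 5985499. The chromosome 5 pair falls between AT5TU022110 at 6158888 and AT5TU023520 at 6592762. These starts are those in the probe annotation, which names no genome build for them. The chromosome 4 pair and RDR2 lie on the same chromosome, and linkage of the pair to the mutation was not tested.

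The neighbourhood of each pair was read from the 10 units on the array next below and the 10 next above in number. The choice of members did not use them. Unit numbers run in steps of 10 and numbers absent from the array were skipped, so most of these units are not immediate neighbours. Of the 40 flanking units, 9 had a probe bright enough to test and 1 was called, against 15.0% of the 1327 transcription units tested on the array. Most of the surroundings were dark: 71 of 116 flanking probes were well above background on no array. Dark probes were common throughout, as only 6915 of all 15013 probes were marked on at least 1 array. Around the chromosome 4 pair, 0 of 8 tested probes passed the limma test. Their log2 fold changes ran from -1.48 to -0.20, all below 0, with a median of -0.80. The median over all 3345 tested probes was itself -0.26. The lowest tested flanking value came from a probe at 3.71, 5.92 and 7.34 in rdr2 and 20.3, 22.6 and 7.60 in WT. The next unit above on the array, AT4TU019860, had -0.20 on its bright probe CUST_908 (SE 0.210, limma adjusted p = 0.519). That probe read 39.3, 48.3 and 30.5 in rdr2 and 42.9, 40.2 and 51.3 in WT. The next unit below the pair on the array, AT4TU019570, had no tested probe and no mark on a mutant array. The next, AT4TU019560, had -1.47 on CUST_5518 (SE 1.21, limma adjusted p = 0.422), at 6.85, 5.81 and 2.75 in rdr2 and 38.3, 30.8 and 1.96 in WT. WT replicate 3 lay below all mutant arrays there, and WT replicates 1 and 2 far above them.

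Around the chromosome 5 pair the called unit was AT5TU021390, 9 units below among those on the array. It rose to 7.10, 6.27 and 6.13 in rdr2 on CUST_6232, against 4.12, 3.87 and 4.01 in WT, a log2 fold change of 0.70 (SE 0.119, limma adjusted p = 0.0193). It was called in 3 of 15 alternative settings, with adjusted p from 0.0144 to 0.234. Among those that ended the call were leaving out mutant replicate 1 (adjusted p = 0.0893), mutant replicate 2 (0.0745), WT replicate 1 (0.0860) or WT replicate 2 (0.101). The 2 units directly below the pair carry the preceding numbers, AT5TU022650 and AT5TU022660, and had no tested probe. AT5TU022660 stood at -0.47 to -1.09 over its probes and was marked on no mutant array, and AT5TU022650 likewise on none. The next unit above on the array, AT5TU022850, does not carry the following number and was marked on no array. Without WT replicate 3, 13 flanking units were called of 20 then tested, 12 of them lower, a setting in which 2243 probes were called over the whole array.

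**Figure D3:**
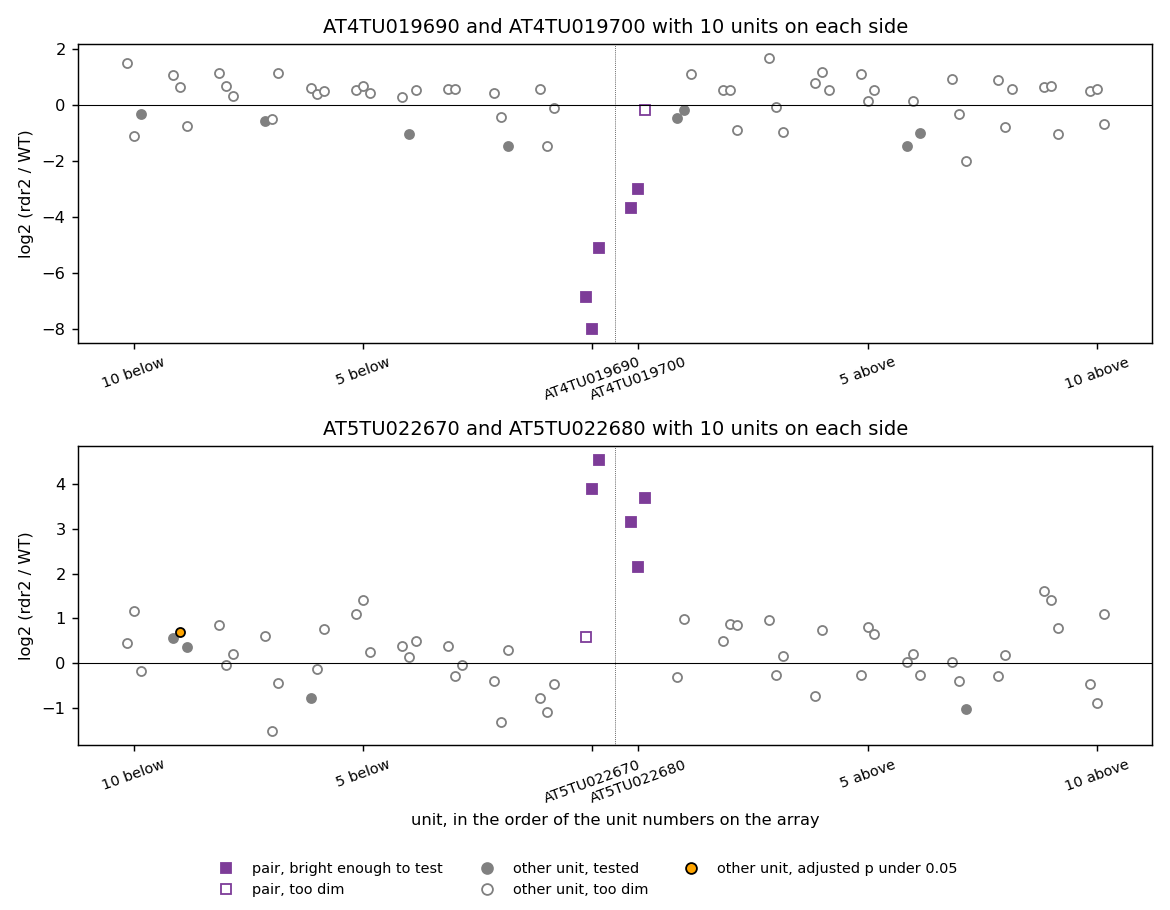
Log2 ratio of rdr2 to WT for each probe (vertical axis) of the 4 units (squares) and of the 10 nearest units on the array on each side (circles). Units are in order of number with absent numbers skipped, filled where the probe was bright enough to test and orange where adjusted p was under 0.05. Flanking probes lie between -2.02 and 1.69, most of them too dim to test, while the tested probes of the pairs lie at -3.02 or lower on chromosome 4 and at 2.14 or higher on chromosome 5.

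Adjacent pairs were units of 1 chromosome next to each other in number among those on the array. Of the 1327 tested units, 15.0% had a called probe, so joint calls start out few. No rarity is read from their count. Of 438 adjacent pairs with both units tested, 112 had at least 1 unit called, and 6 (1.37%) had both called in the same direction, 2 higher and 4 lower, these 6 including the 2 pairs described. Another 2 were called in opposite directions. Among the 140 pairs with consecutive numbers, as here, 4 were called in 1 direction and 0 in opposite directions. These 4 include the 2 pairs described, which were chosen on this contrast. A pair with called probes in a shared direction was never counted as opposite, even where another of its probes was called the other way. In the remaining 298 pairs, 2 were called in each way. No test of these shares was made.

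The 4 other pairs called in 1 direction changed less. AT3TU071530 and AT3TU071540, with consecutive numbers, had log2 fold changes of -2.05 (limma adjusted p = 0.000414) and -1.14 (0.0394) on their leading probes. Another probe of AT3TU071530, CUST_3876, was called the opposite way at 2.24. AT1TU045280 and AT1TU045300 had -0.99 and -2.64 (limma adjusted p = 0.0394 and 0.00872), and again another probe of AT1TU045280 was called higher, at 1.28. AT1TU030410 and AT1TU030460 rose by 0.92 and 2.05 (limma adjusted p = 0.0499 and 0.000811). AT5TU031770 and AT5TU031780 fell by 0.66 and 0.79 (limma adjusted p = 0.0281 and 0.0194). In these 4 pairs the less changed unit moved by at most 1.14 on the log2 scale, against 3.68 in AT4TU019700 and 3.69 in AT5TU022680, both of which rest on signals below detection in 1 group. Among adjacent pairs of 1 sign without both units called, the less changed unit moved by up to 2.02. Replicates 1 and 2 of a group share a slide, and with slide as a random block 1 pair was called, the chromosome 4 pair, while the chromosome 5 pair was not. With normexp background correction the reverse held: 4 pairs were called, among them the chromosome 5 pair but not the chromosome 4 pair. Counts of such pairs also varied with the arrays used, from 2 without mutant replicate 1, mutant replicate 2, WT replicate 1 or WT replicate 2 to 14 without mutant replicate 3 and 568 of 1241 without WT replicate 3.

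**Figure D4:**
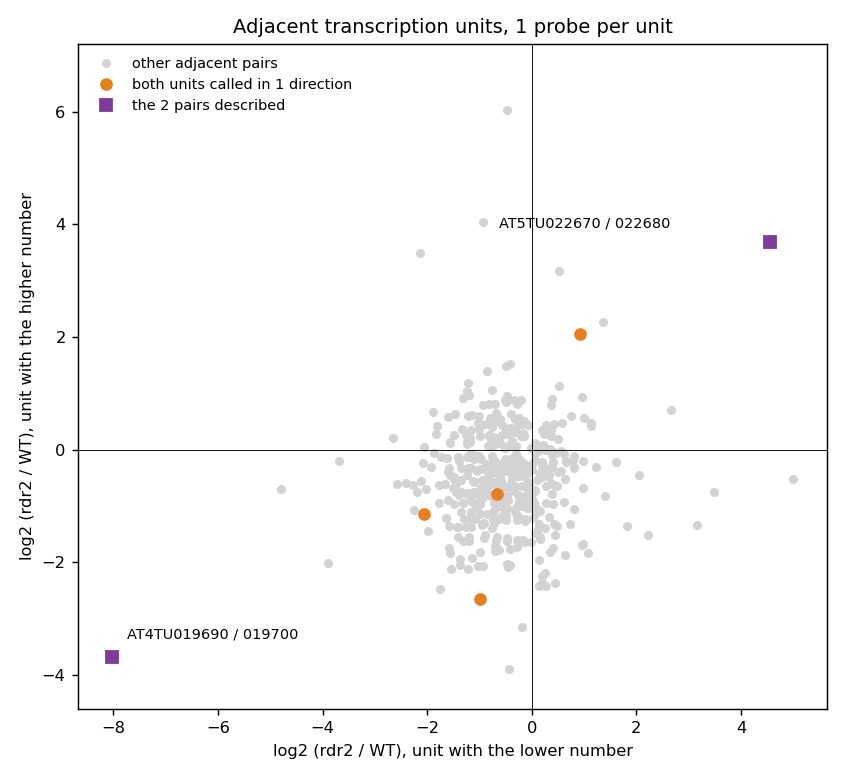
Log2 ratio of rdr2 to WT of the unit with the lower number (horizontal) against that of the next unit (vertical) for 438 adjacent tested pairs, each unit by its probe with the smallest p, taken in the shared direction for pairs called together. The 2 pairs described (squares) were chosen on this contrast and lie outside the cloud, at fitted values of -8.02 and -3.68 and at 4.55 and 3.69. The values -8.02, -3.68 and 3.69 rest on signals below detection in 1 group. The 4 other pairs called in 1 direction (orange) lie closer to 0.

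Probes with the most similar course over the 6 arrays were found by the root mean square difference, on the log2 scale, between profiles each centred on its own mean, using the brightest probe of a unit. For AT5TU022670 they were AT2TU000580 (0.25), the noncoding RNA AT3G41761 (0.35) and AT1TU048310 (0.36), with log2 fold changes of 4.03 to 5.04. The nearest to AT4TU019690 were AT5TU047760 (1.20), the defence-related transcription factor gene WRKY40 (AT1G80840, 1.36) and the noncoding RNA AT2G06002 (1.38), at -4.79, -4.20 and -4.30. The measure grows with a difference in fold, so these larger distances follow from the size of the fitted fold of AT4TU019690, and no lack of similar probes is read from them. The nearest to AT4TU019700 were AT5TU086970 (0.43), AT3TU036030 (0.45) and AT1TU062080 (0.53). For AT5TU022680, through CUST_3724, they were AT2TU052200 (0.68), AT4TU016190 (0.71) and AT4TU026120 (0.72). The matches of AT4TU019700 were made through CUST_2778, whose mutant signals lay below detection. CUST_3724 varied widely in WT and overlapped between the groups, so its matches may not represent the unit's other probes.

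The size of the difference moved more with normexp background correction than with any array left out. That setting starts from the median spot and background intensities, adds an offset of 50 and is followed by quantile normalization. Averaged over its probes, AT4TU019690 stood at -2.56 with it, against -6.67 as reported and -6.59 with quantile normalization of the processed signal. AT4TU019700 stood at -0.18 against -2.29, and AT5TU022680 at 0.40 against 2.99. AT5TU022670, bright in both groups, moved only to 2.60 against 3.00. Leaving out each array in turn kept AT4TU019690 between -6.79 and -6.61, AT4TU019700 between -2.42 and -2.18, AT5TU022670 between 2.91 and 3.08 and AT5TU022680 between 2.80 and 3.23. No unit average changed direction in any setting run.

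**Figure D5:**
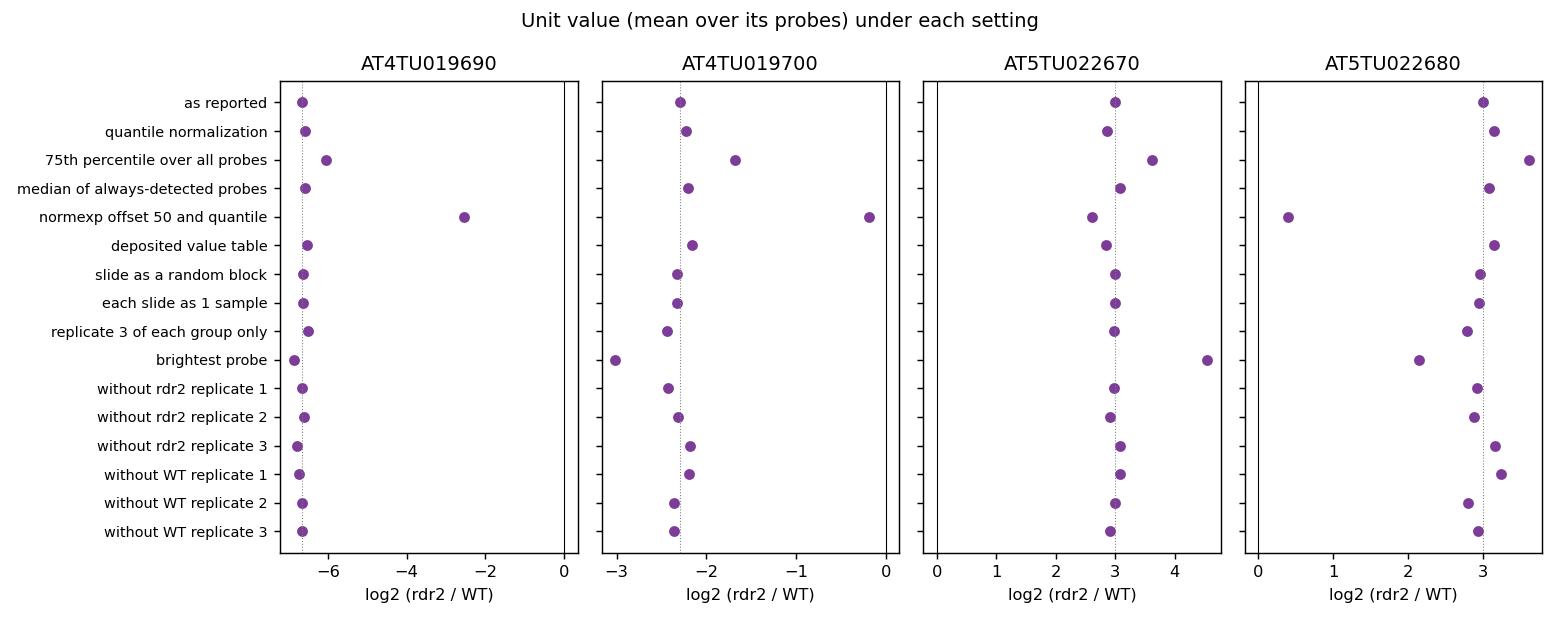
Log2 ratio of rdr2 to WT of each unit (horizontal, mean over its probes; a separate scale per panel) under the reported processing (dotted line) and each other setting. The values cluster near the reported one except with normexp, the 75th percentile over all probes and the use of the brightest probe alone, and all stay on one side of 0.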

How the data were processed

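RNA of 6 samples was labelled with Cy3 and hybridised to 1-colour Agilent arrays. Per the file headers, the deposited processed signal is an intensity with background and spatial trend removed array by array. The software was Agilent Feature Extraction, version 10.7.3.1 for mutant replicate 3 and 10.5.1.1 for the others. Median spot and background values are raw intensity values. The series' value table was deposited as log2 values of unstated processing. At least 99.86% of its values on each array lay within 0.1 of the log2 of quantile-normalized processed signals with a floor of 1, and its column medians were 0.949 to 0.950.

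Log2 processed signals minus the log2 75th percentile of the 2369 always-detected probes were the main values. Testing was by limma 3.58.1 in R 4.3.3, for the 3345 probes marked well above background throughout rdr2, WT or both (group as the sole term, Benjamini-Hochberg over these probes). The procedure was tested on simulated data with independent errors on each array, so the sharing of slides was not simulated. Tables were made in Python 3.11.15 and figures with matplotlib 3.10.9.

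The members and lists were chosen with earlier results of these data known. Named were the 4 units with all probes, RDR2 and its pathway genes on the array, flanking units with a called probe, up to 5 other adjacent pairs with the largest shared change, and the 3 nearest profiles per unit. AT4TU019190, AT4TU019860, AT4TU019560, AT4TU019570, AT5TU022110, AT5TU023520, AT5TU022650, AT5TU022660 and AT5TU022850 were named as neighbours, some after their values were seen. Array number limits precision. Alternatives were other scalings, normexp, the deposited table, filters, blocks and left-out arrays. No probe sequence was used.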

Additional observations from a re-analysis of the deposited data

How the results depend on the processing

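The direction of each unit's average held in every setting. Of single probes, the dim and untested CUST_2779 changed sign, to 0.43 with the 75th percentile over all probes and 0.03 without mutant replicate 2, against -0.19 as reported. With each array scaled to the 75th percentile of all its probes, the unit values were -6.06 for AT4TU019690, -1.68 for AT4TU019700, 3.61 for AT5TU022670 and 3.61 for AT5TU022680, and the median tested probe stood at 0.35, against -0.26 as reported. With normexp they were -2.56, -0.18, 2.60 and 0.40. The brightest probe alone gave -6.87, -3.02, 4.55 and 2.14. Replicate 3 of each group alone, a setting added after the data were seen, gave -6.50 for AT4TU019690. The counts of called probes, flanking units and adjacent pairs were less stable. Against 455 called probes, there were 161 with all-probe scaling, 112 with slide as a random block, 59 with no filter, 79 with a mark on 1 array sufficing, and 145 to 2243 with 1 array left out. Flanking units called, 1 as reported, numbered 0 with quantile normalization, all-probe scaling, normexp, the deposited table, the slide block and either filter, and 0 to 13 with 1 array left out. Adjacent pairs called in 1 direction, 6 as reported, numbered 3 with all-probe scaling, 1 with the slide block, 3 with no filter, 2 with a mark on 1 array sufficing and 2 to 568 with 1 array left out. Pathway genes called, 2 as reported, numbered 4 with normexp, and 1 with no filter and with a mark on 1 array sufficing. With the replicate number as a block, 129 probes, 0 flanking units and 2 adjacent pairs were called. The labels do not pair the numbers across groups, and deviations of same-numbered arrays correlated at -0.12, -0.12 and -0.15 over 3345 probes, so the numbers were not taken as pairs. Signal over background limits AT4TU019690 and AT4TU019700 in rdr2 and AT5TU022680 in WT, where most spots were below detection, though 2 of 3 WT arrays were marked at CUST_3724.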
